A study of Mus musculus with 4 samples.

Results

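The genes described here are markers of Sertoli cells, the somatic cells of the seminiferous tubule, read in libraries made from sorted spermatocytes. The members were chosen by name: *Clu*, *Amh*, *Wt1*, *Sox9*, *Gata4*, *Vim*, *Inha* and *Rhox5*. Of these 8 genes, 7 have a row in the table of 11598 genes. *Rhox5* has no row there, also not under its older symbol *Pem*, and was not analysed here. The study used ribosome profiling (Ribo-seq), which sequences ribosome-protected fragments (RPFs), the stretches of transcript left after RNase I has removed what ribosomes do not cover. Leptotene/zygotene spermatocytes were sorted with a Hoechst DNA dye from testes of mice aged 12 days postpartum, with 2 libraries per genotype. The control mice, which the sample labels call wild type, and the *Eef1g*-cKO mice were on a C57BL/6J background. In *Eef1g*-cKO mice, *Stra8*-GFPCre deletes exons of *Eef1g*, a subunit gene of the translation elongation complex eEF1, in male germ cells from type A1 spermatogonia onward, so Sertoli cells are not cells in which this Cre acts. Whether a library holds cells of several mice is not given in the sources used here.

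Sertoli cells line the tubule, hold each germ cell in a pocket of their cytoplasm and form the junctions of the blood-testis barrier. They are made by a network of transcription factors that starts with *Sry* and is kept up by *Sox9* and *Wt1*, and in the immature testis they secrete anti-Müllerian hormone. Because germ cells are embedded in them, Sertoli cells, their fragments and their free RNA are a known companion of spermatogenic cells in testis suspensions. The question here is how many RPFs of Sertoli genes each of the 4 libraries carried.

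Depth set what could be seen. Control replicate 1 had 2479504 reads on genes and control replicate 2 had 1384282, whereas *Eef1g*-cKO replicates 1 and 2 had 223906 and 407979, a 6.11-fold difference in the means. In RPM, the reads of a gene per 1000000 reads on genes, a single read was worth 0.403 and 0.722 in the control libraries and 4.47 and 2.45 in those of *Eef1g*-cKO. Where no read was found, up to 3 remain possible at 95% confidence, and this limit stood at 13.4 and 7.35 RPM for *Eef1g*-cKO. Intervals on single libraries are exact 95% intervals and cover counting error only, since PCR copies are not independent molecules.

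The labels were checked first. *Eef1g* had 107 and 58 reads in control, against 0 and 4 in *Eef1g*-cKO, or 27.6 and 26.8 FPKM (RPM divided by the gene length in kilobases) against 0 and 6.26. Genes of leptotene and zygotene cells were all in the table, 22 of 22. They summed to 6982 and 5712 RPM in control, against 12983 and 12952 in *Eef1g*-cKO, with *Sycp3*, a protein of the chromosome axis, as the most abundant gene. In every library they outnumbered the reads of the Sertoli markers.

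Together, the 7 Sertoli markers took 2673 and 384 reads in control, against 57 and 68 in *Eef1g*-cKO. In RPM this was 1078 in control replicate 1 (95% interval 1038 to 1120) and 277 in control replicate 2 (250 to 307). It was 255 in *Eef1g*-cKO replicate 1 (193 to 330) and 167 in *Eef1g*-cKO replicate 2 (129 to 211). Control replicate 1 thus stood apart from the other 3 libraries, and the intervals of control replicate 2 and *Eef1g*-cKO replicate 1 overlapped. RPFs come from ribosomes on transcripts. In bulk libraries, fewer Sertoli cells, less RNA per Sertoli cell and fewer ribosomes per transcript cannot be told apart. Both genotypes had the marker reads, and the control mean of 678 ± 566 was 3.22-fold that of *Eef1g*-cKO, 211 ± 62.2 (SD, n = 2 each; exact two-sided permutation test over libraries, p = 0.333, the smallest this design allows). Without control replicate 1 the ratio was 1.32, and without control replicate 2 it was 5.12.

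**Figure D1:**
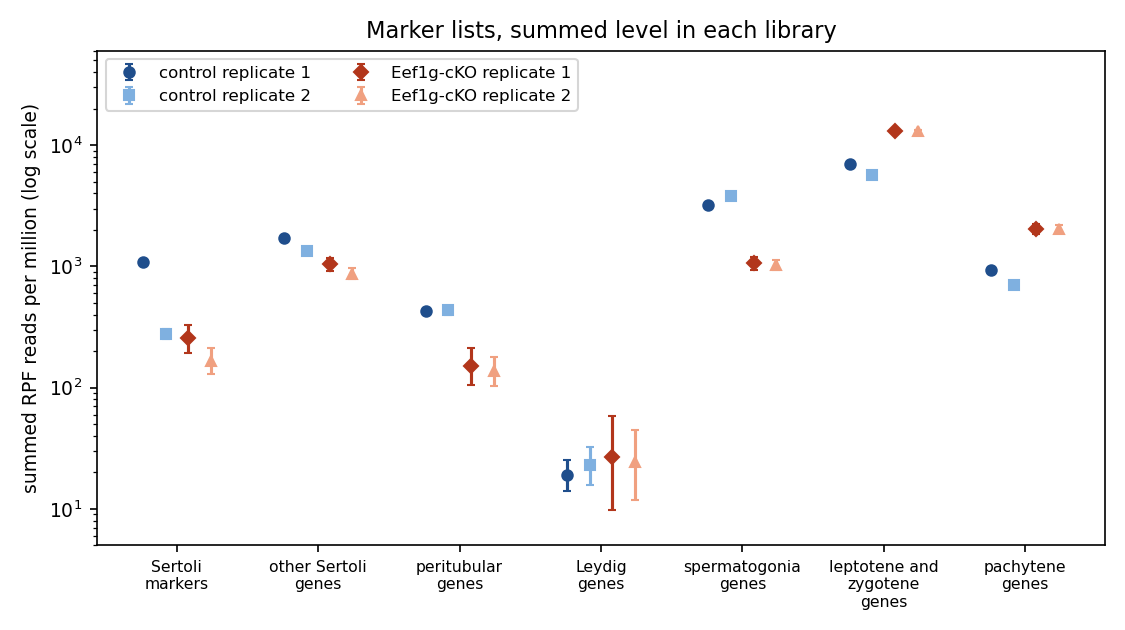
Summed RPM of RPFs (log axis) of 7 marker lists in each of the 4 libraries, with exact 95% counting intervals. The Sertoli markers stood at 1078 in control replicate 1 and between 167 and 277 in the other 3 libraries, while the peritubular list had nearly equal values in both control libraries, 431 and 434.

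The Sertoli markers were also set against the leptotene and zygotene genes of the same library. Per 100 reads of these genes they had 15.4 reads in control replicate 1 (14.8 to 16.1) and 4.86 in control replicate 2 (4.37 to 5.38). The *Eef1g*-cKO libraries had 1.96 (1.48 to 2.55) and 1.29 (0.998 to 1.63). On this scale the groups did not overlap, but its denominator, the leptotene and zygotene genes, had a larger share of reads in both *Eef1g*-cKO libraries. The paper names several of these genes among those with increased RPFs in the same libraries. The ratio is therefore no measure of Sertoli against germ cell input. In RPM, the intervals of control replicate 2 and *Eef1g*-cKO replicate 1 overlapped.

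The transcription factors had the lowest FPKM. *Sox9* (chromosome 11, 112782210 to 112787757 in GRCm38.p6), which directs Sertoli cell fate, had 4.57 and 3.14 FPKM in control replicates 1 and 2 and 2.15 and 1.18 in *Eef1g*-cKO replicates 1 and 2. Its 47 and 18 control reads stood against 2 and 2, and pooled over libraries the RPM were 2.66 times as high in control (0.990 to 10.0). *Wt1* (chromosome 2, 105126529 to 105173614), which keeps Sertoli cells in their differentiated state, had 6.0 and 2.57 FPKM in control, against 0 and 1.59 in *Eef1g*-cKO. Both genes were higher in both control libraries than in either *Eef1g*-cKO library, as were 37.7% of tested genes. For *Wt1* this rested on 46 and 11 control reads against 0 and 2, a pooled ratio of 4.66 (1.23 to 39.4). The limit of 13.4 RPM for 0 reads in *Eef1g*-cKO replicate 1 lay above the 7.95 RPM of *Wt1* in control replicate 2. With control replicate 2 alone as control, an alternative added after the data were seen, the ratio for *Wt1* was 2.51 (0.548 to 23.3), and this interval includes 1.

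*Gata4* (chromosome 14, 63198914 to 63271712) encodes a zinc finger factor of the somatic gonad, which Leydig cells also express. It had 27 and 6 reads in control, 3.21 and 1.28 FPKM, and 0 reads in both *Eef1g*-cKO libraries. The control mean of 7.61 RPM lay under the mean floor of 10.4 that 3 reads per library set in *Eef1g*-cKO, so no fold is given. Pooled over libraries, 33 control reads stood against 0, and the exact 95% interval of the ratio of control to *Eef1g*-cKO had a lower limit of 1.38, for counting error alone. Of these reads, 27 came from control replicate 1, and with control replicate 2 alone, also added after the data were seen, the lower limit was 0.537.

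The hormone genes were read in every library. *Amh* (chromosome 10, 80805240 to 80807679), whose product makes the Müllerian ducts regress and which immature Sertoli cells secrete, had 19.9 and 5.64 FPKM in control, against 13.4 and 2.94 in *Eef1g*-cKO. *Inha* (chromosome 1, 75507077 to 75510366), the alpha subunit of inhibin, through which Sertoli cells restrain follicle-stimulating hormone, had 38.9 and 20.7 FPKM in control, against 24.4 and 13.4 in *Eef1g*-cKO. The genotypes overlapped for both genes, because control replicate 2 lay between the *Eef1g*-cKO libraries. *Amh* had 82 and 13 reads in control, against 5 and 2 in *Eef1g*-cKO, and *Inha* had 141 and 42 against 8 and 8.

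*Clu* (chromosome 14, 65968483 to 65981548) encodes clusterin, a secreted chaperone and a major product of Sertoli cells. It had 458 and 96.3 FPKM in control, against 91.4 and 65.1 in *Eef1g*-cKO, from 2052 and 241 reads against 37 and 48. Control replicate 1 was far above the other 3 libraries, among which *Clu* spanned 65.1 to 96.3 FPKM. *Vim* (chromosome 2, 13574311 to 13582826) encodes vimentin, the intermediate filament protein of Sertoli cells, which fibroblasts, endothelial cells and other somatic cells also make. It had 61.1 and 20.9 FPKM in control, against 12.2 and 8.02 in *Eef1g*-cKO, from 278 and 53 reads against 5 and 6, so that both control libraries lay above both *Eef1g*-cKO libraries.

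**Figure D2:**
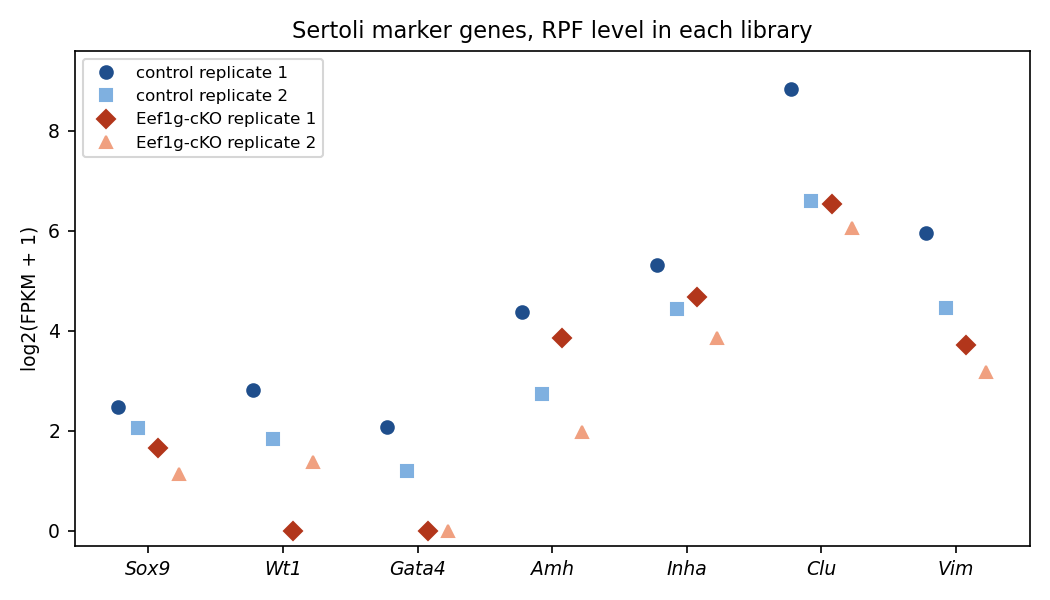
RPF level of each Sertoli marker in each library, as log2(FPKM + 1), with genes ordered as transcription factors, hormones, secreted chaperone and filament protein. Control replicate 1 (dark circles) is the highest point for all 7 genes, and symbols at 0 are libraries with 0 reads.

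By level per length, the order in control was *Clu* with 277 ± 256 FPKM, *Vim* with 41.0 ± 28.5, *Inha* with 29.8 ± 12.8, *Amh* with 12.8 ± 10.1, *Wt1* with 4.28 ± 2.42, *Sox9* with 3.85 ± 1.01 and *Gata4* with 2.24 ± 1.37 (SD, n = 2 libraries). No neighbours in this order differed beyond these spreads, which hold the difference in level between the control libraries. Within each control library the order was the same, except that *Sox9* lay above *Wt1* in control replicate 2. In *Eef1g*-cKO the order was *Clu* with 78.2 ± 18.6 FPKM, *Inha* with 18.9 ± 7.79, *Vim* with 10.1 ± 2.94, *Amh* with 8.18 ± 7.40, *Sox9* with 1.67 ± 0.687, *Wt1* with 0.793 ± 1.12 and *Gata4* at 0. There *Clu* stood clear of *Inha*, and the neighbours below it were within their spreads. *Clu* led in all 4 libraries. FPKM divide by the whole gene length, and RPFs come mostly from coding sequence, which makes up different shares of these genes. As RPM per kilobase of coding sequence, *Wt1*, with a coding length of 906 bases in a gene length of 3092, had a control mean of 14.6 and stood beside *Amh* (12.8) and *Sox9* (10.5).

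The share of *Clu* in the marker reads differed less between libraries than the summed RPM of the markers. For *Amh*, on 2 to 82 reads, the share ran from 2.94% to 8.77%. *Clu* held 76.8% of the marker reads in control replicate 1 (exact 95% interval 75.1 to 78.4) and 62.8% in control replicate 2 (57.7 to 67.6). In *Eef1g*-cKO its share was 64.9% (51.1 to 77.1) and 70.6% (58.3 to 81.0). The intervals of the control libraries did not overlap, so *Clu* had a larger share in control replicate 1 than in control replicate 2, while both *Eef1g*-cKO intervals overlapped that of control replicate 1. *Inha* held 5.27% (4.46 to 6.19) and 10.9% (8.0 to 14.5) in control and 14.04% (6.26 to 25.8) and 11.8% (5.22 to 21.9) in *Eef1g*-cKO, with the lowest share in control replicate 1. Without *Clu* the markers summed to 250 RPM in control replicate 1 (231 to 271) and 103 in control replicate 2 (87.1 to 122). The *Eef1g*-cKO libraries had 89.3 (54.6 to 138) and 49.0 (29.9 to 75.7), so control replicate 1 stood apart without its most abundant marker too.

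**Figure D3:**
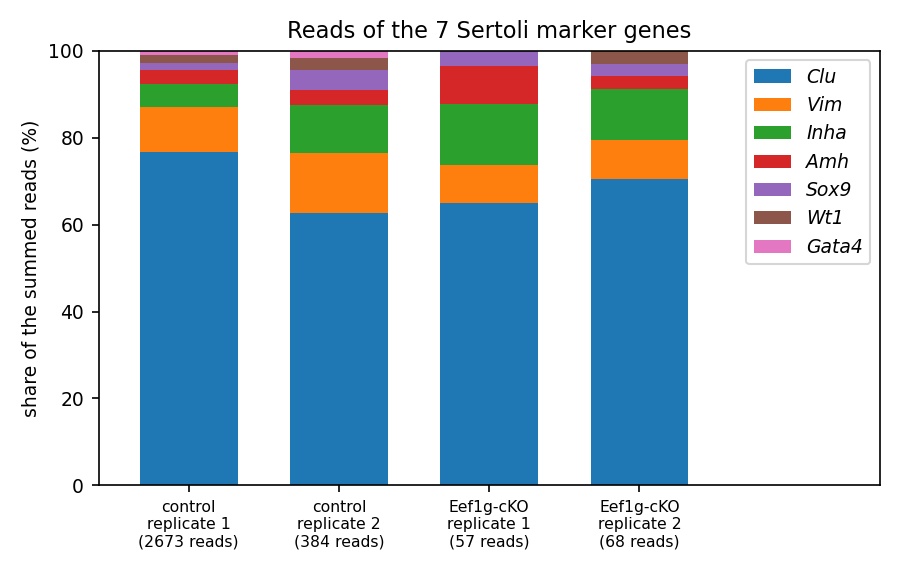
Share of the summed reads of the 7 Sertoli markers that each gene took in each library, in percent, with the number of reads under each bar. *Clu* held between 62.8% and 76.8%, and the *Eef1g*-cKO bars rest on 57 and 68 reads.

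By difference in FPKM, the control libraries were further from each other than control replicate 2 was from either *Eef1g*-cKO library for 6 of 7 markers, all but *Sox9*. By ratio this held for 4, *Clu*, *Amh*, *Vim* and *Inha*. All 7 markers were highest in control replicate 1, against 22.2% of the 10475 genes that averaged 1 FPKM or more. The ratio of control replicate 1 to control replicate 2 was 4.75 for *Clu* (exact 95% interval 4.16 to 5.46), 3.52 for *Amh* (1.95 to 6.89) and 2.93 for *Vim* (2.18 to 4.01). It was 2.51 for *Gata4* (1.02 to 7.44), 2.33 for *Wt1* (1.19 to 5.0), 1.87 for *Inha* (1.32 to 2.71) and 1.46 for *Sox9* (0.831 to 2.67). The interval of *Sox9* included 1, and that of *Clu* lay above those of *Inha*, *Sox9* and *Vim*. Of the 7 markers, 5 were at least 2-fold higher in control replicate 1, against 9.14% of the 9809 genes with at least 20 reads in both control libraries together. The median ratio was 2.51 for the markers and 0.960 for those 9809 genes.

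**Figure D4:**
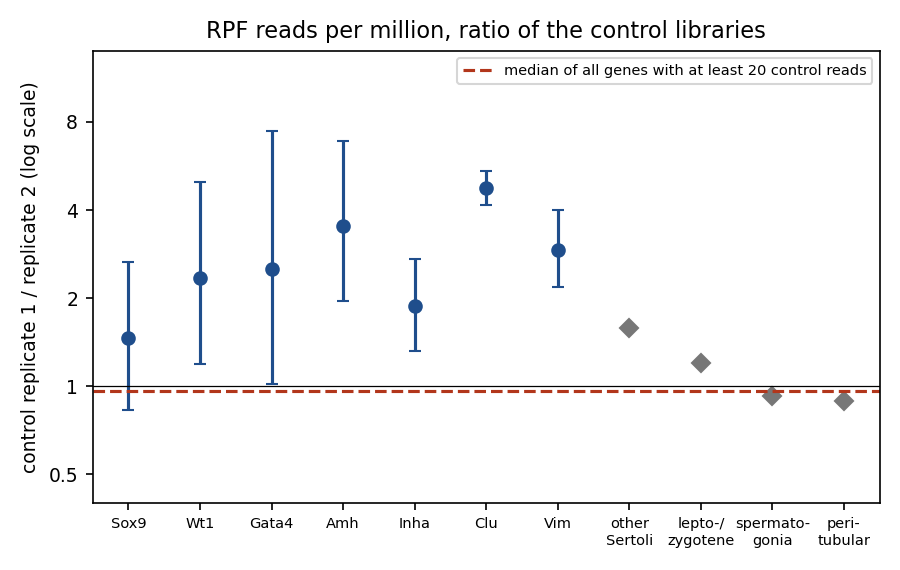
Ratio of RPM in control replicate 1 to control replicate 2 (log axis) for each Sertoli marker with its exact 95% interval (circles), and the median ratio of 4 other lists (diamonds). The markers lie between 1.46 and 4.75, and the dashed line marks the median of all genes with at least 20 control reads, 0.960.

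Between genotypes, the markers were compared in a limma fit of log2(FPKM + 1) over the 10475 genes averaging 1 FPKM or more, which all 7 markers passed, *Wt1* and *Gata4* only through their control level. Fold changes on this scale understate the change of genes with low levels. All 7 fitted values were below 0, and their median of −1.43 stood against −0.23 for all tested genes. With *Gata4* set to no change, since its control mean lay under the floor, the median was −0.87. Centring each library on its median moved the median of all tested genes to −0.02 and that of the markers to −1.22. With *Gata4* set to no change there as well, the middle value was −0.66, that of *Sox9*. All 7 were below 0, *Gata4* with 0 reads in *Eef1g*-cKO among them. By unadjusted p in limma 1 rather than 2 was lower after centring, *Vim*, against 12.8% of tested genes. None of the 7 passed limma's adjusted p of 0.05 with an absolute log2 fold change above 1, where 4.97% of tested genes were lower and 2.87% were higher in *Eef1g*-cKO. By unadjusted p in limma 2 of 7 were lower and 0 were higher, against 16.3% and 7.32% of tested genes. These were *Vim* and *Gata4*, and *Gata4*, with 0 reads in *Eef1g*-cKO and a value set by the pseudocount, supports no change. Both *Eef1g*-cKO libraries lay below both control libraries for 5 of 7 markers, against 37.7% of tested genes. Of the 5 markers that averaged 1 FPKM or more in each genotype, a restriction added after the data were seen, 0 were called by limma's adjusted p, against 4.19% lower and 3.17% higher among 9219 such genes. By unadjusted p 1 was lower, *Vim*, and 0 higher, against 12.5% and 7.80%. Their median was −0.87 against −0.13, and for 3 of 5 the genotypes did not overlap, with *Eef1g*-cKO the lower, against 33.5%.

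*Vim* had a log2 fold change of −1.76 (95% interval −3.09 to −0.43, limma adjusted p = 0.0949). *Clu* had −1.43 (−3.15 to 0.28, limma adjusted p = 0.223), and its control libraries were 4.75-fold apart. *Wt1* had −1.64 (−3.33 to 0.06, limma adjusted p = 0.175) and *Sox9* −0.87 (limma adjusted p = 0.289). The value of *Wt1*, from 0 and 2 reads in *Eef1g*-cKO, was −3.30 with a pseudocount of 0.1 and −0.67 with a pseudocount of 5. *Amh* had −0.64 (−2.64 to 1.36, limma adjusted p = 0.621) and *Inha* −0.62 (−1.69 to 0.44, limma adjusted p = 0.368), and these intervals leave room for changes in both directions. The fitted value of *Gata4*, −1.63 (limma adjusted p = 0.122), depends on the pseudocount and is no bound.

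The outcome changed with the test and with the library left out. edgeR's quasi-likelihood test on the recovered reads kept 5 of the 7 markers and called 2 of them lower, *Clu* (log2 fold change −1.81, edgeR adjusted p = 0.00885) and *Vim* (−2.05, edgeR adjusted p = 0.0133), against 11.2% of 8056 genes. DESeq2, which gave 5 of the 7 markers an adjusted p, called 1 lower, *Vim* (DESeq2 adjusted p = 0.0466), against 3.89% of the 11598 genes fitted. Without control replicate 1, 6 markers were tested in limma. Their median log2 fold change was −0.49, against −0.23 for all tested genes, and *Amh* was at 0.18. With either control library left out, limma's calls by adjusted p were lost over all tested genes. A lost call is not a lost fold: *Dmrt1*, called with all libraries, had 199 and 259 FPKM in control, against 59.5 and 59.9 in *Eef1g*-cKO. edgeR and DESeq2 were not run without single libraries.

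**Figure D5:**
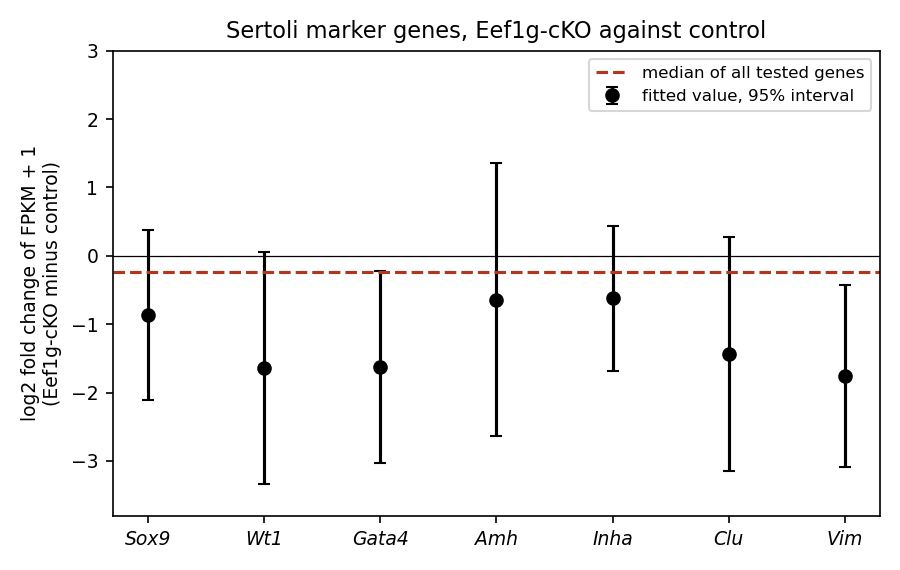
Fitted log2 fold change of FPKM + 1 in *Eef1g*-cKO against control for each Sertoli marker, with the 95% interval from limma (2 libraries per genotype). The dashed line is the median of all tested genes, −0.23, and the interval of *Vim* lies below 0. *Gata4* had 0 reads in *Eef1g*-cKO, and its point and interval depend on the pseudocount.

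A second list of Sertoli genes was read in the same way, with 31 of 42 genes in the table. It holds junction proteins, secreted proteins and receptors, and several of its genes are also made by other cells of the testis. The list summed to 1720 and 1335 RPM in control, against 1036 and 873 in *Eef1g*-cKO. Of its 29 tested genes, 19 were highest in control replicate 1, against 22.2% of all tested genes, and 12 of the 26 with at least 20 control reads were at least 2-fold higher there than in control replicate 2, against 9.14%. Its median ratio between the control libraries was 1.58, below that of the 7 markers.

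The most abundant genes of that list did not share 1 pattern. *Aard* had 111 and 24.7 FPKM in control, against 16.6 and 23.6 in *Eef1g*-cKO. *Cst12*, a cystatin gene of Sertoli cells, had 161 and 52.9 FPKM in control, against 90.0 and 31.4 in *Eef1g*-cKO. Both followed the markers, with control replicate 1 highest. *Ctsl*, a lysosomal protease that Sertoli cells secrete and most cells contain, had 274 and 192 FPKM in control, against 310 and 271 in *Eef1g*-cKO, and *Bex2* had 30.0 and 33.6 against 39.6 and 29.9. These 2 genes overlapped between genotypes and did not follow control replicate 1. *Dmrt1*, which spermatogonia express as well, had 199 and 259 FPKM in control, against 59.5 and 59.9 in *Eef1g*-cKO.

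Of the 29 genes of this list that were tested, 2 were lower and 0 higher by limma's adjusted p, against 4.97% and 2.87% of all tested genes. By unadjusted p 9 were lower and 0 higher, against 16.3% and 7.32%. The median log2 fold change was −1.20, or −1.01 with the 3 genes at 0 reads in *Eef1g*-cKO set to no change. *Dmrt1* fell by 1.91 on the log2 scale (limma adjusted p = 0.0233). *Cldn3*, a claudin of the blood-testis barrier, was the other, with 25 and 11 reads in control and 0 in both *Eef1g*-cKO libraries (limma adjusted p = 0.0339). It passed the filter only through control and its control level lay under the floor, so no fold is given and its call supports no change. Of the 20 genes averaging 1 FPKM or more in each genotype, 1 was lower by limma's adjusted p, *Dmrt1*, and 5 by unadjusted p, against 4.19% and 12.5% of such genes, with a median of −0.90.

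Lists of other somatic cells gave the comparison. Peritubular genes, with 11 of 14 in the table, summed to 431 and 434 RPM in control, against 152 and 137 in *Eef1g*-cKO, so the control libraries were alike and both lay above *Eef1g*-cKO. *Igfbp7*, the most abundant, had 32.9 and 38.1 FPKM against 3.68 and 6.06 (limma adjusted p = 0.0289), and *Col1a1*, a fibrillar collagen chain, had 19.1 and 20.6 against 3.803 and 4.70 (limma adjusted p = 0.0365). In this list 2 of 11 genes were lower and 0 higher by limma's adjusted p (4.97% and 2.87% of all tested genes), with a median log2 fold change of −1.45. *Acta2*, the smooth muscle actin of peritubular cells, had 28.7 and 16.9 FPKM in control, against 5.21 and 16.2 in *Eef1g*-cKO, and *Tagln* had 9.66 and 20.04 against 22.5 and 3.09. The excess of control replicate 1 in Sertoli markers was therefore not matched by the peritubular list, whose median ratio between the control libraries was 0.893.

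Of the lists for Leydig cells, endothelium, macrophages and blood, the genes that have a row had few reads, and those without a row were not analysed here. Leydig genes, 4 of 9 in the table, summed to 19.0, 23.1, 26.8 and 24.5 RPM in control replicates 1 and 2 and *Eef1g*-cKO replicates 1 and 2, with *Fdx1* the most abundant at 3.40, 3.36, 5.19 and 5.70 FPKM. *Star* had 0.705, 0.541, 2.23 and 1.22 FPKM, and *Cyp11a1*, the first enzyme of steroid synthesis, had 0 reads in 3 libraries and 12 in control replicate 2. Endothelial genes, 3 of 8 in the table, had 37, 11, 3 and 7 reads, or 14.9, 7.95, 13.4 and 17.2 RPM. *Cd14*, the single macrophage gene of 10 in the table, had 4, 6, 0 and 1 reads. None of the 7 blood genes had a row. Only 3 Leydig genes, 2 endothelial genes and 1 macrophage gene passed the filter for testing. None of them was called by limma's adjusted or unadjusted p. Among all tested genes, the adjusted p called 4.97% lower and 2.87% higher, while the unadjusted p called 16.3% and 7.32%. With so few genes tested, the lack of calls does not set these lists apart from all tested genes. Sertoli markers, with 2673 and 384 control reads, were thus read far more often than the Leydig list, with 47 and 32.

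Germ cell lists were read beside the somatic lists, and their part in the values of the Sertoli markers was not tested. Spermatogonia genes, 16 of 16 in the table, summed to 3214 and 3808 RPM in control, against 1058 and 1034 in *Eef1g*-cKO, with 7 of 15 tested genes lower and 0 higher by limma's adjusted p (4.97% and 2.87% of all tested genes). *Uchl1* had 1011 and 1138 FPKM in control, against 140 and 120 in *Eef1g*-cKO, and *Kit* had 126 and 160 against 14.7 and 22.2. *Rhox13*, also among the most abundant of this list, lay the other way with 136 and 210 FPKM against 313 and 319 (log2 fold change 0.90, limma adjusted p = 0.0842, edgeR adjusted p = 0.00599). Of the leptotene and zygotene genes, 10 of 22 were higher and 0 lower by limma's adjusted p, where all tested genes had 2.87% and 4.97%. The paper names all of these 10 as genes with increased RPFs in the same libraries. The list was chosen with such results known, so this count is no independent result. *Sycp3* had 811 and 716 FPKM in control, against 2217 and 1778 in *Eef1g*-cKO. The spermatogonia list had a median ratio between the control libraries of 0.929 and the leptotene and zygotene list of 1.21, so neither showed the excess of the Sertoli markers in control replicate 1.

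Control replicate 1 also differed in small non-coding RNA genes, which are microRNA, small nucleolar and related genes recognised by name. These 137 genes took 14.3% of reads in control replicate 1, 10.6% in control replicate 2, and 8.75% and 10.4% in *Eef1g*-cKO. Per 1000000 of the remaining reads the Sertoli markers had 1257 and 310 in control, against 279 and 186 in *Eef1g*-cKO, so leaving these genes out of the total kept control replicate 1 apart. Whether the small RNA genes and the Sertoli markers share a source was not tested.

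Base composition was not used in the choice of members. The GC content at the third position of codons ranged from 62.6% to 82.6% over the 7 markers, with a median of 71.7%. The 10117 tested genes with a coding sequence had a median of 60.2%, with 3239 between 60 and 70% and 1595 between 70 and 80%. Over all 10117, the median log2 fold change in *Eef1g*-cKO ran from 0.25 at a GC content there of up to 40% to −0.68 between 70 and 80%. With each library's trend on GC content removed, an alternative chosen after the data were seen, the markers' median log2 fold change was −1.23. This is the value of *Gata4*, which depends on the pseudocount. All 7 were below 0, *Gata4* with 0 reads in *Eef1g*-cKO among them. For the 5 markers averaging 1 FPKM or more in each genotype, the middle value was −0.49, that of *Sox9*, against −0.87 before this step. *Amh* was then at −0.24, *Inha* at −0.28 and *Sox9* at −0.49, each closer to 0 by more than 1.5 times, and 1 marker rather than 2, *Vim*, was lower by unadjusted p in limma, against 16.2% of the genes in that fit. Between the control libraries the median ratio of replicate 1 to replicate 2 over all such genes with at least 20 control reads was 1.12 in the lowest of these GC classes and 0.872 between 70 and 80%. The part of base composition in the markers' ratios was not tested. No other gene of the RefSeq annotation overlaps any of the 8 markers.

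The genes whose profile over the 4 libraries was most like the summed FPKM of the markers were sought among the 3469 genes averaging 20 FPKM or more, by the root mean square distance of centred log2(FPKM + 1) values. The markers themselves were left out of this search. *Clu* held 62.8% to 76.8% of the marker reads, so the summed profile is mostly its own and the search finds mainly genes like *Clu*. The summed profile was closest to that of *Clu* (distance 0.11) and *Vim* (0.26). The other markers lay between 0.46 (*Gata4*) and 0.80 (*Wt1*) from it, further than the nearest genes named next. The 5 nearest were *Snora64* (0.23), *Nhp2l1* (0.30), *Snora33* (0.34), *Gsta4* (0.36) and *Capns1* (0.38), where the median distance was 1.09. *Snora64*, a small nucleolar RNA gene, had 6752 and 660 reads in control, against 109 and 164 in *Eef1g*-cKO. *Gsta4*, a glutathione transferase gene, had 104 and 39.97 FPKM in control, against 18.6 and 15.4 in *Eef1g*-cKO. Of the second Sertoli list, *Aard* ranked 7, *Cst12* 11 and *Cst9* 15 of these genes, while *Dmrt1* ranked 632, *Ctsl* 1299, *Bex2* 1591 and *Defb36* 3394. These are all 7 genes of that list in the search.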

How the data were processed

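Ribo-seq of sorted leptotene/zygotene spermatocytes gave 4 libraries, described in the study's design as biological replicates, 2 per genotype. The authors deposited FPKM values for 11598 genes, and a signal in which each gene's count was divided by a size factor per library. These values were 100% whole multiples of 1 step per library (tolerance 0.01 reads), which gave back the reads, and the FPKM were recomputed from them. The submitters' processing notes name cutadapt, Bowtie and STAR and the builds mm10 and hg38, without roles; the paper names RiboMiner. The table also holds the authors' own comparison (mean normalized count, log2 fold change with its error and test statistic, p-value and adjusted p-value), which was not used.

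Values of log2(FPKM + 1) were tested with limma 3.58.1 under R 4.3.3, the prior variance following abundance, for genes averaging 1 FPKM or more. A gene was called when its Benjamini-Hochberg adjusted p was below 0.05 and its log2 fold change beyond 1 in size. edgeR 4.0.16 (filterByExpr, TMM, quasi-likelihood) and DESeq2 1.42.0 on the recovered reads were alternatives, beside other pseudocounts, filters, scaling, thinned reads, GC content, a replicate block and leaving out each library. The models were tested on simulated data, but no outcome is given here and no result in the text rests on it. Counting intervals and permutation tests used Python 3.11.15 with scipy 1.17.1. Coding sequences were the longest per gene in GENCODE M21, and coordinates are those of RefSeq for GRCm38.p6, given for orientation.

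The members and gene lists were chosen with earlier results of these data known. Named genes were all members, the 3 genes of highest mean FPKM of a list (5 for the second Sertoli list), called list genes, *Eef1g* and the 5 nearest profiles; where a list has many such genes, examples are given.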

Additional observations from a re-analysis of the deposited data

How the results depend on the processing

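Over the alternatives, 96 of 98 fold changes of single markers were below 0 and 92 were not called, as in the limma comparison of the report. *Gata4*, with 0 reads in both *Eef1g*-cKO libraries, and *Wt1*, with 0 and 2, passed the filter only through control. Their signs therefore add no weight to this count. The fits with no filter, with a minimum mean of 5 FPKM, without a trend and with the replicate block repeat the main fold changes by construction. Their signs could not differ, so 96 of 98 is no measure of robustness. *Amh* was above 0 in the remaining 2 of the 98, at 0.18 without control replicate 1 and 0.29 when *Eef1g*-cKO replicate 2 was left out. The number of all genes called was 822 (301 higher, 521 lower). It was 76 with a pseudocount of 0.1, 2472 by unadjusted p and 1609 in edgeR. It was 0 without a trend in limma's prior variance (793 higher and 1811 lower by unadjusted p) and 0 in limma after thinning to equal depth (680 and 1265 by unadjusted p). Leaving out each library gave 0 to 2037 in limma, with 0 without either control replicate (585 and 941, and 501 and 724, by unadjusted p), 1455 when *Eef1g*-cKO replicate 1 was left out and 2037 when replicate 2 was. Centring the libraries moved the share of higher calls from 36.6% to 57.6%. Of the Sertoli markers, 0 were called by limma's adjusted p, 2 by unadjusted p, 2 in edgeR, 1 in DESeq2 and 0 to 1 when each library was left out, *Vim* when *Eef1g*-cKO replicate 1 was left out and *Wt1*, then at 0 reads in *Eef1g*-cKO, when replicate 2 was. Their median log2 fold change of −1.43 was −0.53 with a pseudocount of 5, which shrinks low genes by construction. It was −0.87 for the 5 averaging 1 FPKM in each genotype (added after the data were seen). Leaving out each library gave −2.07 to −0.49, and the ratio of the markers' summed share was then 1.32 to 5.12. The −2.07, without control replicate 2, is the value of *Gata4*, which depends on the pseudocount. Among those 5 markers the middle value in that fit was −1.47, that of *Amh*. Deviations between replicates 1 and 2 were uncorrelated between the genotypes over genes (−0.00804, 2 pairs). This cannot decide whether replicate numbers pair the samples, because the *Eef1g*-cKO libraries had a median of 5 and 8 reads per gene. With the replicate block 1246 genes and 1 Sertoli marker were called, *Vim* (limma adjusted p = 0.0258), while the limma adjusted p of *Clu* was 0.0511. The causes of the other shifts were not tested. Leaving a library out leaves its genotype with 1 library, assumed to vary like the other genotype. With control replicate 2 alone as control, the pooled ratio of *Sox9* was 2.05 rather than 2.66. Depth limits *Gata4*, *Wt1* and *Sox9* most, with at most 2 reads per *Eef1g*-cKO library.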

Other observations

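Genes of later germ cells were read beside the somatic lists. Pachytene genes, 7 of 12 in the table, summed to 940 and 707 RPM in control, against 2023 and 2030 in *Eef1g*-cKO, and 2 of 7 were higher and 0 lower by limma's adjusted p (2.87% and 4.97% of all tested genes). *Hist1h1t*, a linker histone gene of spermatocytes, had 388 and 301 FPKM in control, against 1458 and 1354 in *Eef1g*-cKO. Spermatid genes, 4 of 10 in the table, had 26 and 41 reads in control, against 1 and 6 in *Eef1g*-cKO. *Tnp1*, a transition protein gene of spermatids, had 22 reads in control replicate 2 and 4, 0 and 2 in control replicate 1 and the *Eef1g*-cKO replicates, and *Prm2* had 13 reads in control replicate 2 and 0 in the other 3 libraries. The other 2 genes lay the other way between the control libraries, *Spaca1* with 12 and 5 reads and *Tssk6* with 10 and 1, against 0 and 2, and 1 and 2, in *Eef1g*-cKO, so all 4 are given.

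*Shbg*, *Gata6* and *Tuba1a*, named after their values were seen, had 27, 17 and 12 reads in control replicate 1 and 0 reads in the other 3 libraries.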
